A study of Mus musculus with 2 samples.

Results

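Mir296 and Mir298 are a pair of mouse microRNA genes at the imprinted Gnas locus, and they were followed here in the midbrain of mouse embryos of strain B6NCrl at embryonic day 10.5. They are 2 of the 1973 microRNA genes with a row in the deposited count tables. The genes were chosen by symbol, through the Ensembl identifiers of the rows, and with read counts of these same libraries already known, so all their values below are a description. The series has 1 group of 2 biological replicates, with small RNA (under 30 nt) sequenced from midbrains of healthy embryos of both sexes. Replicate 1 is a pool of 69 embryos and replicate 2 a pool of 51. The labels name no treatment or mutation, and there is no other tissue or stage to set the group against. A pool averages many embryos and all cell types of the dissected midbrain, and in such bulk tissue more cells of a type and more RNA per cell cannot be told apart.

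A microRNA gene is transcribed as a longer primary transcript that holds a hairpin. The enzymes Drosha and Dicer cut the hairpin to a short duplex, and either strand of that duplex, the 5p or the 3p arm, can be loaded into an Argonaute protein. Bases 2 to 8 of the loaded arm, the seed, do most of the pairing with target messages. The Gnas locus encodes the stimulatory G protein alpha subunit, which couples hormone and neurotransmitter receptors to cyclic AMP, and gives rise to several transcripts that are each made from the maternal or the paternal chromosome only. Nespas is its paternally expressed antisense transcript. In mouse, Mir296 and Mir298 are known as members of this imprinted cluster that are expressed from the paternal chromosome. The reads counted here do not separate the parental alleles.

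The 4 mature arms are shown because the gene counts rest on them, since each count adds the reads of both arms. The sequences are those of RefSeq on GRCm38.p6, written 5′ to 3′ with the seed in capitals. They lie on the minus strand of chromosome 2.
miR-296-5p: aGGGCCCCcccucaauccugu
miR-296-3p: gAGGGUUGgguggaggcucucc
miR-298-5p: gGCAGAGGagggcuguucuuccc
miR-298-3p: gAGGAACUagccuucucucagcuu
The 4 seeds all differ. None of them occurs as the seed of another gene's arm among the 1738 mature microRNAs in the RefSeq table, and 1182 of the 1738 (68.0%) have a seed that no other gene shares. With the shorter seed of bases 2 to 7, a match was found only for miR-296-5p, with miR-5621-3p, whose gene Mir5621 was nearly absent here at 0.287 ± 0.0224 CPM (reads per 1000000 gene-assigned reads; mean ± SD, n = 2). No other gene of the table thus shares a 7-base seed with either microRNA.

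The hairpins are printed with both mature arms in capitals, to show where the counted reads can come from.
Mir296 hairpin: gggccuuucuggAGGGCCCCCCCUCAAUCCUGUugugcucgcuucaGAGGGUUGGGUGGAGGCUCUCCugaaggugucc
Mir298 hairpin: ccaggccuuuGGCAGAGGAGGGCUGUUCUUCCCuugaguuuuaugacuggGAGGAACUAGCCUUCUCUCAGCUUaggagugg
The genes are neighbours but not copies of each other. The longest run of bases found in both hairpins had 7 bases, and arms of the different genes were 12 to 16 single-base edits apart. Mir296 had the more GC-rich hairpin, at 63.3% G and C against 53.7% for Mir298 and a median of 51.7% over 1005 RefSeq hairpins. Its 5p arm holds a run of 7 C bases (CCCCCCC, searched on the strand of the microRNA only), which was found in 2 of the 1738 mature sequences (0.115%), the other being miR-1249-3p. Both hairpins had low predicted folding energies, −43.2 kcal/mol for Mir296 and −42.7 kcal/mol for Mir298. Per base, these were lower than for 91.5% and 87.5% of the RefSeq hairpins.

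Both genes lie alone in their stretch of chromosome 2. Mir296 (ENSMUSG00000065521.1) is at chr2:174267047-174267125 and Mir298 (ENSMUSG00000065410.1) at chr2:174267504-174267585, in mm10 coordinates on the minus strand, so that Mir298 comes before Mir296 in the direction of transcription. They are 79 and 82 bases long, and 378 bases lie between them. In GENCODE M21 neither overlaps another gene, so they were placed in no exon, intron or UTR. The annotated end of Nespas (chr2:174281237-174295436, also on the minus strand) is 13.7 kb from Mir298, and Gnas (chr2:174284320-174346744, plus strand) begins 16.7 kb from Mir298. The other counted microRNA genes within 1 Mb, Gm27591 and Mir6340, had no read in either library. The nearest microRNA genes with at least 10 reads in both libraries were Gm23134, 16.7 Mb away on one side, and Mir124a-3, 6.63 Mb away on the other side. Between these 2 genes, Mir296 and Mir298 were the only microRNA genes that reached 10 reads in both libraries.

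Mir296 was an abundant microRNA gene of the embryonic midbrain. It had 23671 reads in replicate 1 and 29873 reads in replicate 2, which are 7178 and 8112 CPM. Its level was 7645 ± 661 CPM (SD, n = 2), and it was number 28 of the 1973 genes by mean CPM, number 30 in replicate 1 and 29 in replicate 2. It made up 0.718% of the gene-assigned reads in replicate 1 (95% Wilson interval 0.709 to 0.727%) and 0.811% in replicate 2 (0.802 to 0.820%). The intervals do not overlap, but they cover counting error alone. No molecular identifiers are recorded for the reads, so several can come from 1 molecule.

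Mir298 was slightly less abundant and nearly equal in the replicates. It had 19727 reads in replicate 1 and 22383 reads in replicate 2, or 5982 and 6078 CPM. Its level was 6030 ± 68.3 CPM (SD, n = 2), number 40 of the 1973 genes, with number 40 in replicate 1 and 39 in replicate 2. Its shares of the gene-assigned reads were 0.598% (95% Wilson interval 0.590 to 0.607%) and 0.608% (0.600 to 0.616%). Both genes together accounted for 1.37% ± 0.0729 of all gene-assigned reads (SD, n = 2). Each read of a mature microRNA stands for a whole short RNA, so counts were not divided by length, but adapter ligation favours some ends over others and a level in reads is not a number of molecules.

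Nearly all these reads were of the strand of the genes, and the mature arms matched no other annotated gene. The tables have a column for each strand, and Mir296 had no read on the strand opposite to the gene in either library. Mir298 had 0 opposite-strand reads in replicate 1 and 1 in replicate 2. No other gene among the GENCODE M21 transcripts held the exact sequence of any of the 4 arms on either strand, and neither precursor shared a stretch of 20 bases with another of the 2202 microRNA loci. Sequence outside annotated transcripts was not searched. By that measure 952 of the 1973 counted genes, and 30 of the 107 genes of 1000 CPM or more, do share such a stretch, so that part of their reads can be among the multiply mapped ones that the gene counts leave out. Among the 1021 genes for which no shared stretch was found, Mir296 was number 22 and Mir298 number 32. Genes outside the 1894 with a GENCODE M21 symbol could not be searched and count among the 1021.

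**Figure D1:**
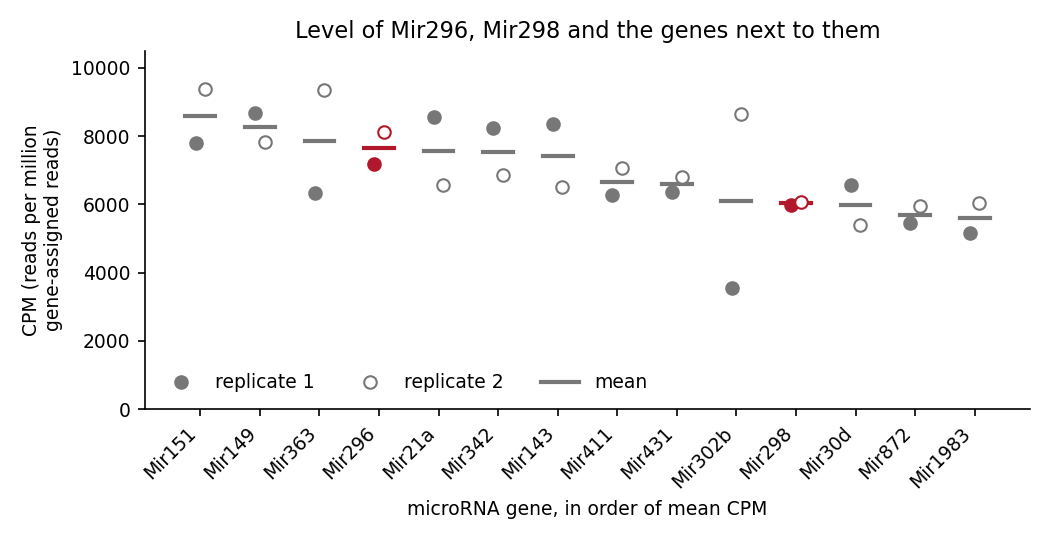
Level (CPM, linear axis from 0) of Mir296, Mir298 (red) and the 3 genes next above and next below each of them in the order of mean CPM. Filled points are replicate 1, open points replicate 2 and lines the means; the 2 points of Mir298 almost coincide at 5982 and 6078 CPM, whereas those of Mir302b lie at 3559 and 8659 CPM.

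The place of each gene in the order of levels was less certain than its own counts. Around Mir296, the plot of levels shows Mir363 just above, at 7843 ± 2132 CPM, and Mir21a just below, at 7557 ± 1397 CPM (SD, n = 2). The replicates of all 6 genes next to Mir296 overlapped its range, as did those of 12 genes in all. Mir298 stood between Mir302b at 6109 ± 3606 CPM and Mir30d at 5978 ± 839 CPM, and its narrow range was overlapped by 8 genes. Of the 6 genes next to it, Mir411, Mir431 and Mir872 did not overlap it. The replicates of Mir296 lay above those of Mir298, so the order of the pair was the same in both libraries.

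The genes whose levels were most like those of each member were found by the distance of log2 CPM over the 2 libraries, among the 621 genes with reads in both. For Mir296 these were Mir652 (distance 0.15, 7233 ± 1049 CPM), Mir20b (0.23, 6949 ± 1079 CPM) and Mir369 (0.24, 6858 ± 119 CPM; SD, n = 2 for each). Mir652 and Mir20b lie on the X chromosome, and Mir20b is a member of the mir-106a-363 polycistron, a relative of mir-17-92. For Mir298 they were Mir872 (distance 0.14, 5695 ± 357 CPM), Mir431 (0.19, 6583 ± 320 CPM) and Mir1983 (0.21, 5599 ± 611 CPM). Mir369 and Mir431 belong to another imprinted domain, Dlk1-Dio3 of chromosome 12. With 2 libraries of 1 group, this likeness is one of level and replicate ratio only.

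The replicates were compared by the ratio of replicate 2 to replicate 1, with library sizes scaled by TMM (trimmed mean of M values). Mir296 was 1.13-fold higher in replicate 2, and the 95% counting interval of its log2 ratio of 0.18 ran from 0.16 to 0.21. Mir298 was 1.02-fold higher, and its log2 ratio of 0.028 had an interval from 0.00030 to 0.056. Of the 338 genes of mean CPM 10 or more, 17.2% differed between the replicates by more than 1.5-fold in either direction, and neither Mir296 nor Mir298 was among these 58 genes. The ratio of Mir296 was smaller than the spread of all 338 genes, whose log2 ratios had an SD of 0.57 and a median size of 0.26 without regard to sign. Only 15 of the 338 genes had a ratio nearer to 1 than Mir298, and 118 had one nearer to 1 than Mir296. These counts hold for TMM scaling. With DESeq2 size factors the log2 ratio of Mir298 was 0.062. Its share of all reads of the library was 0.253% in replicate 1 and 0.238% in replicate 2. The direction for Mir298 thus depended on the total used. For Mir296 these shares were 0.303% and 0.317%. This comparison is between 2 libraries of the same group and carries no test.

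**Figure D2:**
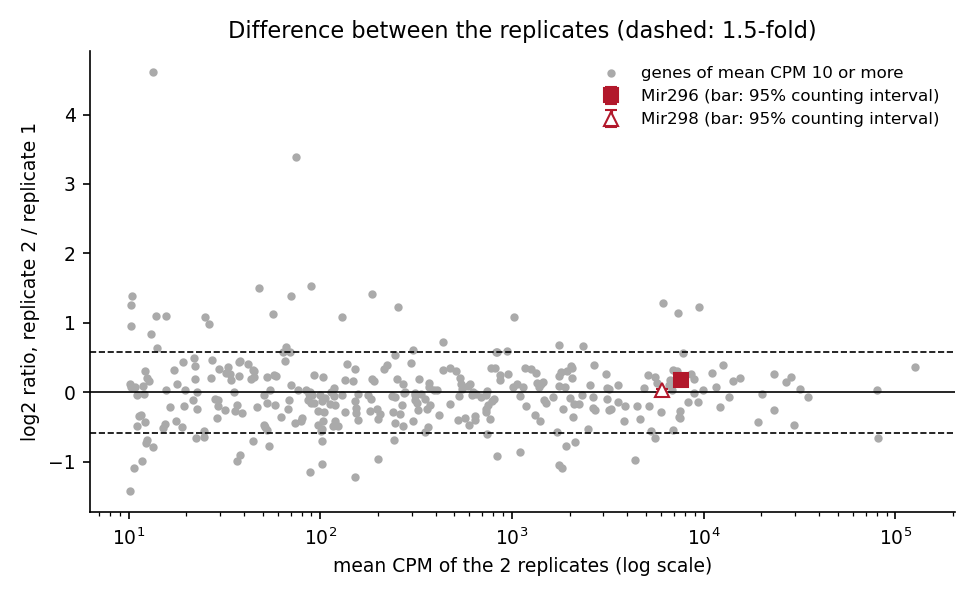
Log2 ratio of replicate 2 to replicate 1 against mean CPM (log axis) for the 338 genes of mean CPM 10 or more. Dashed lines mark 1.5-fold, and Mir296 (square) and Mir298 (triangle) at 0.18 and 0.028 lie between them; their counting intervals are shorter than the symbols.

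Scaled by gene-assigned totals, Mir298 also had one of the smallest spreads among abundant genes. Over the 107 genes with a mean of 1000 CPM or more, the median coefficient of variation between the replicates was 11.1%. It was 1.13% for Mir298, with 1 gene below it, and 8.64% for Mir296, with 42 genes below it. The small spread of Mir298 depended on the scaling. Its SD of 68.3 CPM became 185 CPM with DESeq2 size factors and 257 CPM without the most abundant gene, Mir335. Without genes that share 20 bases with another locus it was 160 CPM. An SD from 2 values is itself imprecise, so these figures order the genes in these libraries only.

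Within each library the reads of the pair were close to equal, with Mir296 ahead. There were 1.20 Mir296 reads per Mir298 read in replicate 1 (95% counting interval 1.18 to 1.22) and 1.33 in replicate 2 (1.31 to 1.36). This ratio does not depend on how the libraries were scaled. It was 1.11-fold larger in replicate 2 (counting interval 1.08 to 1.14), a change in log2 of 0.15. Mir296 had more reads than Mir298 in both libraries. The interval covers read counting alone and not the spread between pools. The other pairs of adjacent genes show only how the ratios of other genes moved between these same 2 libraries.

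Adjacent microRNA genes are often cut from 1 primary transcript, yet their read counts can differ widely. Pairs of genes were formed from the genes of mean CPM 10 or more that follow each other on 1 strand less than 10 kb apart, which gave 107 pairs. The median pair differed in level by 6.55-fold, and 69 pairs by more than 4-fold, whereas Mir296 and Mir298 differed by 1.27-fold on the mean log2 scale. Only 6 of the 107 pairs were closer in level, and 16 (15.0%) were within 1.5-fold. The 3 pairs nearest to that difference were Mir188 with Mir532 (1.27-fold), Mir181d with Mir181c (1.26-fold) and Mir302a with Mir302d (1.28-fold). Mir181c and Mir181d are known from neural tissue, and the mir-302 genes from embryonic stem cells. Among the 69 pairs whose genes share no 20 bases with another locus, 4 were closer in level than Mir296 and Mir298, and the median difference was 6.48-fold.

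Beside the other pairs of these libraries, the steadiness of the pair's ratio was ordinary. The log2 ratio within the pair moved by 0.15 between the replicates, the median over the 107 pairs was 0.18, and 48 pairs moved less. A gene can enter 2 pairs, so the pairs are not independent. Pairs with genes near 10 CPM also carry more counting error than Mir296 with Mir298.

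**Figure D3:**
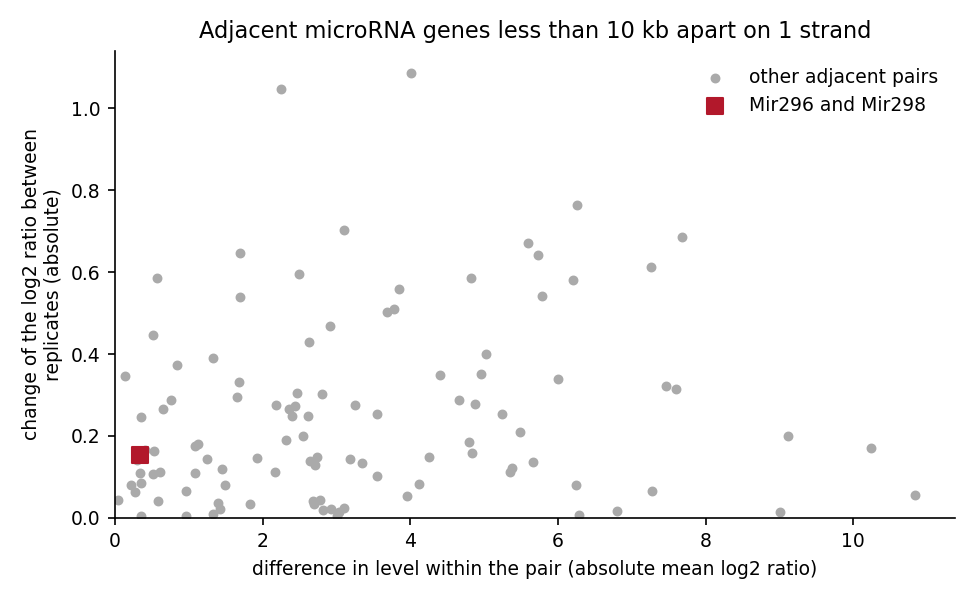
For 107 pairs of adjacent microRNA genes, the absolute mean log2 ratio of reads within the pair (horizontal) and the absolute change of that log2 ratio between the replicates (vertical). Mir296 and Mir298 (red square) lie at 0.34 and 0.15, at the left edge of the cloud in level and near its middle in change.

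Set beside the microRNA genes of a list of other imprinted loci, the Gnas pair ranked high. The list was not checked for completeness, so the ranking holds within it only. Imprinted genes are expressed from 1 parental chromosome, and the other such loci listed were Mest (Mir335), H19 (Mir675), Igf2 (Mir483) and the Dlk1-Dio3 domain. Of 57 listed genes 51 were among the counted rows, and 47 reached a mean CPM of 10. Mir335, which lies in an intron of Mest, was far higher, with 8.46 times the summed reads of the pair in replicate 1 and 10.1 times in replicate 2. Mir483, in an intron of the growth factor gene Igf2, had 513 ± 76.9 CPM and Mir675, made from the long noncoding RNA H19, had 58.5 ± 6.79 CPM (SD, n = 2), both below Mir296 and Mir298 in either library. Among these 51 genes, only Mir335 and Mir487b had a higher mean than Mir296.

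The Dlk1-Dio3 domain carries many microRNA genes that are expressed from the maternal chromosome. Its 46 counted members accounted for 6.72% ± 0.0572 of all gene-assigned reads (SD, n = 2), and the Gnas pair held 19.7% as many reads in replicate 1 and 21.0% in replicate 2. The 3 highest members were Mir487b (9933 ± 156 CPM), Mir369 (6858 ± 119 CPM) and Mir411 (6668 ± 564 CPM). The 3 lowest of the 42 at 10 CPM or more were Mir668 at 51.0 ± 11.9 CPM, Mir1188 at 18.0 ± 1.03 CPM and Mir1197 at 12.9 ± 1.02 CPM. Mir487b alone was above Mir296 in this list, and 4 members were above Mir298. Mir409 is not among the counted rows. Gm24321, which overlaps it on the other strand, had 11105 ± 1461 CPM, all in the column taken as the strand opposite to Gm24321. Counting every row between the outermost listed genes, 56 rows held 8.36% ± 0.143 of the gene-assigned reads, 2 of them were above Mir296 and 5 above Mir298.

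Between the pools, 46 of the 47 microRNA genes of the imprinted list at 10 CPM or more stayed within 1.5-fold. The median log2 ratio of replicate 2 to replicate 1 was 0.040 over the 47 genes of the imprinted list at 10 CPM or more, against −0.032 over all 338 genes. The share past 1.5-fold among all 338 genes was 17.2%, and in the list 1 gene passed. That share was lower among more abundant genes, at 12.2% of the 222 genes of mean CPM 100 or more. The 47 genes of the list had a median of 734 CPM, so the 338 genes are not matched to them in level. The list was chosen with earlier results of these libraries known. The single values outside Dlk1-Dio3 were 0.37 for Mir335, 0.31 for Mir483 and 0.24 for Mir675, and the 42 Dlk1-Dio3 genes ranged from −0.47 to 0.65 with a median of 0.031.

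**Figure D4:**
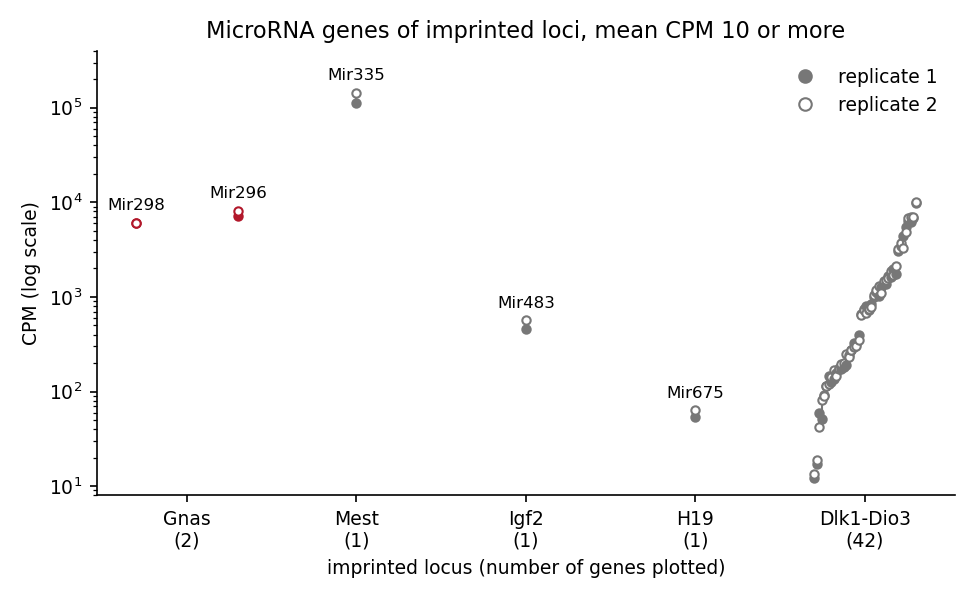
Level (CPM, log axis) of the 47 microRNA genes of the imprinted list with a mean of 10 CPM or more, by locus. Filled points are replicate 1 and open points replicate 2; Mir296 and Mir298 of the Gnas locus (red) lie below Mir335 and above Mir483 and Mir675.

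On chromosome 2, 224 microRNA genes were counted, and Mir296 and Mir298 were the third and the fourth of them by mean CPM. Above them were Mir130a at 35213 ± 1167 CPM and Mir126a, known from endothelium, at 28615 ± 3062 CPM (SD, n = 2). The Gnas pair held 14.1% of the chromosome's reads in replicate 1 and 14.5% in replicate 2.

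The libraries held 7810040 and 9423767 reads, of which 3297835 (42.2%) and 3682410 (39.1%) were assigned to a microRNA gene. The tissue label was checked with lists of marker microRNAs, of which the neural one had 10 of its 11 genes among the counted rows, none at 0 in both libraries. These neural genes held 2.82% and 3.36% of the gene-assigned reads in replicates 1 and 2, mostly Mir92b, while Mir9 and Mir124a genes, whose copies share sequence, reached at most 102 ± 49.7 CPM, the value of Mir9-3 (SD, n = 2). Of the 7 neural genes at 10 CPM or more, 2 were past 1.5-fold, both lower in replicate 2: Mir9-3, with 452 and 246 reads and a log2 ratio of −1.03, and Mir124a-2, with 56 and 36 reads and a log2 ratio of −0.78. The log2 ratio was 0.26 for Mir92b, 0.36 for Mir219a-1 and 0.25 for Mir219a-2. Reads of microRNAs known from other cell types were also counted, at very unequal levels, and do not by themselves show that such cells were in the tissue. The embryonic stem cell list, with 10 of 11 genes found by symbol, held 1.46% in replicate 1 and 3.38% in replicate 2. All 8 of these found genes at 10 CPM or more were over 1.5-fold higher in replicate 2. The symbol Mir292a was not found. A row named Mir292, which lies next to Mir291a, had 117 and 285 reads and a log2 ratio of 1.13, and was not in these sums. Endothelial Mir126a held 2.64% and 3.08%, the epithelial list (6 of 6 genes) 0.252% and 0.343%, the erythroid list (2 of 2) 0.0386% and 0.0339%, and the leukocyte list (2 of 2) 0.0588% and 0.0581%. The muscle list, with 6 of 7 genes counted and 3 at 0, held 0.00497% and 0.00557%. The 3 at 0 were Mir1a-1, Mir133a-1 and Mir133a-2. Each is 1 of several numbered copies, and reads that match more than 1 copy are left out of the gene counts. Their 0 therefore does not show that these microRNAs were absent. Liver Mir122 held 0.000576% and 0.00152%. The log2 ratios of those 8 stem cell genes were 1.09 to 1.42, and those of Mir296 and Mir298 were 0.18 and 0.028. The part of any cell type in the levels of Mir296 and Mir298 was not tested.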

How the data were processed

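The deposited tables hold raw read counts per microRNA gene, 1 table for each library. The authors used the mm10 build and the GENCODE M4 annotation, per the descriptions deposited with the files. Aligner and trimming: not given in the sources used here. Multiply mapped reads (30.9% and 29.5% of the libraries) and other reads without a gene stand in 4 separate rows, together 57.8% and 60.9%, and were left out of library sizes. The count columns have no names; in all 1973 gene rows the first is the total of the 2 that follow, and it was used. The middle column, with 97.4% and 97.3% of the gene-assigned reads, was taken as the gene's strand. Identifiers were matched without version to GENCODE M21 (GRCm38, the build of mm10), 1894 of 1973 with a symbol. Hairpins and mature sequences came from RefSeq (GRCm38.p6).

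CPM, means and SDs were computed over the 2 replicates. The replicates are pools of different embryos. Ratios used 0.5 added reads and TMM-scaled totals (edgeR 4.0.16), and DESeq2 1.42.0 size factors as an alternative; intervals are at 95%. The ratio script was tested on simulated data. Folding used ViennaRNA 2.7.2; the rest R 4.3.3 and Python 3.11.15 with pandas 2.3.3, numpy 2.4.6, matplotlib 3.10.9 and scipy 1.17.1. The members and lists were chosen with earlier results of these data known. Named genes were the members, genes with a shared seed, the 3 nearest in level over both libraries, microRNA genes within 1 Mb, the 3 adjacent pairs nearest in ratio, and of the imprinted list all outside Dlk1-Dio3 with the 3 highest and 3 lowest within it. Genes next in the level order, the highest of chromosome 2, the nearest detected neighbours, Gm24321 and Mir5621 were named after their values were seen. With 1 group there is no contrast between conditions and no test.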

Additional observations from a re-analysis of the deposited data

How the results depend on the processing

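Levels in CPM depended on which genes make up the total. Mir296 had 8773 CPM and Mir298 6913 CPM without the most abundant gene, Mir335, and 9186 and 7242 CPM without genes that share 20 bases with another locus, since fewer reads enter the total. With same-strand reads only, Mir298 had 6195 CPM. DESeq2 size factors gave log2 ratios between the replicates of 0.22 for Mir296 and 0.062 for Mir298, because they shift all ratios by 0.035 relative to TMM. The other settings for levels and ratios, thinning and added reads among them, stayed within the replicate SD or the counting interval. Thinning and added reads are weak checks at counts of this size. Leaving out a replicate gave 7178 to 8112 CPM for Mir296, 5982 to 6078 CPM for Mir298 and 0.26 to 0.42 for the log2 ratio of Mir296 to Mir298. Each of 2 values always lies within their SD of the mean, so this setting could not fall outside it. The percentage of adjacent pairs closer in level was 5.61% within 10 kb, 3.13% within 1 kb and 6.72% within 50 kb. The number of genes past 1.5-fold followed the filter, with 146 of 522 genes at mean CPM 1 or more, 27 of 222 at 100 or more and 346 of 769 with no filter; 25 of 338 genes passed 2-fold. No paired analysis was possible because the series has 1 group. With 2 libraries the spread among further pools is not known.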
